A study of Homo sapiens with 3 samples.

Results

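SOX9 lies beside a gene desert on chromosome 17, and the p300/CBP peaks around it were taken as all those on that chromosome whose centre fell within 1.5 Mb of the SOX9 transcription start site, at position 70117161 on the plus strand of hg19. This SOX9 window held 148 of the 82901 peaks listed for control cells and 77 of the 39320 listed for Fra-1-depleted cells. The peaks came from ChIP-seq, in which chromatin bound by p300/CBP is immunoprecipitated and sequenced. Both lists are from MDA-MB-231 cells, an established triple-negative breast cancer line of the basal B type. The siCTL cells received a non-targeting siRNA and the siFra-1 cells a pool of 3 siRNAs to Fra-1, at a total of 4.5 nM in either case. They were fixed after 72 h, for 7 min according to the sample records, where the paper's ChIP-seq methods give a shorter time. The comparison addressed where p300/CBP was recruited when Fra-1 was depleted. Of the 3 samples of the series, the input was not analysed here, and the lists do not measure how far Fra-1 was depleted. No test between conditions was possible with 1 library per condition, made from pooled immunoprecipitations. The lists give positions and widths but neither peak height nor read depth, so the intervals given cover counting error only.

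SOX9 encodes a transcription factor of the SOXE group that directs cartilage and testis development and marks progenitor cells of several epithelia, the mammary gland among them. It is flanked by a large gene desert holding enhancers that act over great distances, and chromosomal breaks far upstream of the gene are known to cause campomelic dysplasia and related skeletal or gonadal disorders. p300 and CBP are related acetyltransferases recruited to enhancers and promoters by DNA-bound factors, one of which is AP-1, a dimer of a Fos family protein such as Fra-1 and a Jun family protein. AP-1 recognises the 7-base word TGAGTCA, which reads TGACTCA on the other strand. In the annotation used here (GENCODE release 44 on hg19), 8 protein-coding genes start inside the window, and none of them starts upstream of SOX9. After SOX9, the nearest start downstream is that of SLC39A11, a zinc transporter gene, 972 kb away.

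The widest peaks of the window came together at 16 loci, each at least 250 bp wide in one or both lists. Of these, 8 loci held an AP-1 word, 9 words in all. They are shown with the bases on either side, as the words inside the widest peaks, and they are 9 of a larger number of words counted further on (plus strand of hg19, 5′ to 3′, the AP-1 word in capitals).
chr17:69435088-69435128: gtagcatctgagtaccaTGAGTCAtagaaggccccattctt
chr17:70147810-70147850: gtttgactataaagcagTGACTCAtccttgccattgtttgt
chr17:70385501-70385541: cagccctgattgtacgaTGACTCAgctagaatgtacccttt
chr17:70389893-70389933: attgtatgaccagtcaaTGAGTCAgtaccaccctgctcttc
chr17:70585248-70585288: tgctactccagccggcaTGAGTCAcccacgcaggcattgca
chr17:70598827-70598867: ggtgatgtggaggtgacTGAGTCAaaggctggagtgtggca
chr17:70680183-70680223: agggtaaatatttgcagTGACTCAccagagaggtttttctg
chr17:70680299-70680339: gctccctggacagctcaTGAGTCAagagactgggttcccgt
chr17:71287734-71287774: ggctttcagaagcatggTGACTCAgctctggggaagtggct
The lines run in order of position, from 682 kb upstream to 1171 kb downstream of the SOX9 start. The second line is the locus nearest to SOX9, 30.7 kb downstream in an intron of SOX9-AS1, the long non-coding RNA transcribed against SOX9. The third to the sixth lie inside LINC00511, a long non-coding RNA gene between SOX9 and SLC39A11. The 2 words at 563 kb lie in a single peak in an intron of SLC39A11, and the last lies in an intron of CDC42EP4, which encodes an effector of the GTPase CDC42.

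The peaks that flank the SOX9 promoter and those that were widest in each class are shown next, up to 300 bases around the centre of each (plus strand of hg19, 5′ to 3′, any AP-1 word in capitals). They show that wide peaks of the window did and did not carry the word.
Nearest siCTL peak upstream, chr17:70112652-70112751: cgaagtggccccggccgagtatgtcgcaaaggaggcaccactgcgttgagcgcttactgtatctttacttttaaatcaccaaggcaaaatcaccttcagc
Nearest siFra-1 peak upstream, chr17:69972452-69972651: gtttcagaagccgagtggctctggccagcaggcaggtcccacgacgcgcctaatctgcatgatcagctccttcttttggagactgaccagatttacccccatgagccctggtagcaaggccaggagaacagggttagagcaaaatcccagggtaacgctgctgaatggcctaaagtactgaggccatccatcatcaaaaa
Nearest siFra-1 peak downstream, chr17:70147752-70148051: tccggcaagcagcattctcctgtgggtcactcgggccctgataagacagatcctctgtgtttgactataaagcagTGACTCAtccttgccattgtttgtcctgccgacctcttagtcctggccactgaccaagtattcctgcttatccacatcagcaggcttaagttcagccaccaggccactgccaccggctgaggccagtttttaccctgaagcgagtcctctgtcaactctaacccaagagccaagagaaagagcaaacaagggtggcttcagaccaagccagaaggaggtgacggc
Widest shared peak, chr17:69420352-69420651: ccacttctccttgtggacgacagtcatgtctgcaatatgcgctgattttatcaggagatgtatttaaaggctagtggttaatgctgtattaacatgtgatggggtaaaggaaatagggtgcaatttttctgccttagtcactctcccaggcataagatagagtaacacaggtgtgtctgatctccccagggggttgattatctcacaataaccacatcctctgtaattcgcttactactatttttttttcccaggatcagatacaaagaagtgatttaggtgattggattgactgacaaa
Widest siCTL-only peak, chr17:70388152-70388451: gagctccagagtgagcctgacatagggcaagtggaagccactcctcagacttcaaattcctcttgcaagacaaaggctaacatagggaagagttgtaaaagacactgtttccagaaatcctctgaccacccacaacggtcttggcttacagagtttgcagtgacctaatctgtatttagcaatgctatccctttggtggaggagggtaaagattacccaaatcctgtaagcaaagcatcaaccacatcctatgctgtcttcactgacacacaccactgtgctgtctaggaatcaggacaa
Widest siFra-1-only peak, chr17:70382977-70383276: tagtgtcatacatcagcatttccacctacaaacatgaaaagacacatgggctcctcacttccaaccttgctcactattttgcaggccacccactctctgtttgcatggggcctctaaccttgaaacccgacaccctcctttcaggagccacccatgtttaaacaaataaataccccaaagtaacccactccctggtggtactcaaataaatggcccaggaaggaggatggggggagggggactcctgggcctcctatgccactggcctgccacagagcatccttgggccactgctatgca
Only the nearest downstream siFra-1 peak among these 6 stretches held an AP-1 word. Of the other words searched, its stretch also held a SOX word. The stretch of the widest shared peak held a RUNX and a SOX word, and that of the widest siCTL-only peak a RUNX, a C/EBP and a SOX word. Over its whole 600 bp, the widest shared peak also held 2 C/EBP words. The siCTL peak nearest to SOX9 downstream lies in an untranslated part of the gene itself and its bases are not shown.

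p300/CBP peaks were fewer in the siFra-1 list than in the siCTL list over the SOX9 window, as they were over the whole genome. The siFra-1 to siCTL ratio of peak numbers in the window was 0.520 (77 against 148, exact 95% interval 0.390 to 0.690). Over all peaks the ratio was 0.474 (0.469 to 0.480) and over chromosome 17 it was 0.486 (0.459 to 0.515), both inside the interval of the window. The number of peaks a list holds can also move with read depth and with the processing of the signal, of which 1 parameter differed between the lists, and these cannot be told apart here from a change in p300/CBP binding, nor can less binding in every cell from binding in fewer cells.

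The ratio was higher for wider peaks, in the lists as a whole and, with overlapping intervals, in the window. At 100 bp, the smallest width in either list, the window held 110 siCTL and 51 siFra-1 peaks (ratio 0.464, 0.326 to 0.652), where the ratio over all such peaks was 0.398. At 150 or 200 bp it held 26 and 13 (0.5, 0.236 to 1.01), where that over all was 0.577. From 250 bp upward it held 12 and 13 (1.08, 0.456 to 2.60). Over all peaks of that width, 3655 and 5989, the ratio was 1.64 (1.57 to 1.71), and on chromosome 17 it was 1.69 (1.41 to 2.03), both inside the broad interval of the window. Peaks of 250 bp and over made up 8.11% of the siCTL peaks of the window (95% Wilson interval 4.70 to 13.6) where 4.41% of all siCTL peaks were that wide. In the siFra-1 list the share was 16.9% (10.1 to 26.8), close to the 15.2% of all siFra-1 peaks. Against the peaks elsewhere in the genome, the siCTL share was higher by 3.71 percentage points (Newcombe interval 0.294 to 9.24) and the siFra-1 share by 1.65 points (−5.10 to 11.6). Chromosome 17 was itself richer in such peaks than the genome. It held 191 among its 3635 in the siCTL list, and 323 among its 1768 in the siFra-1 list. The difference in share between the window and this chromosome was not tested. Peaks covered 19.9 kb of the window in the siCTL list and 12.3 kb in the siFra-1 list, with mean widths of 135 bp and 160 bp.

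Peaks were spread over the whole 3.0 Mb. They lay more thickly on the downstream side, though in siFra-1 the interval of the upstream share includes an even split. Upstream of SOX9 lay 48 peaks in siCTL and 33 in siFra-1 (ratio 0.688, 0.428 to 1.09). Downstream lay 100 and 44 (ratio 0.440, 0.301 to 0.633). The upstream side thus held 32.4% of the siCTL peaks (25.4 to 40.3) and 42.9% of the siFra-1 peaks (32.4 to 54.0), and the difference of 10.4 points had an interval from −2.68 to 23.6 that includes 0. In peaks per Mb, the upstream side held 32.0 in siCTL and 22 in siFra-1, and the downstream side 66.7 and 29.3.

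**Figure D1:**
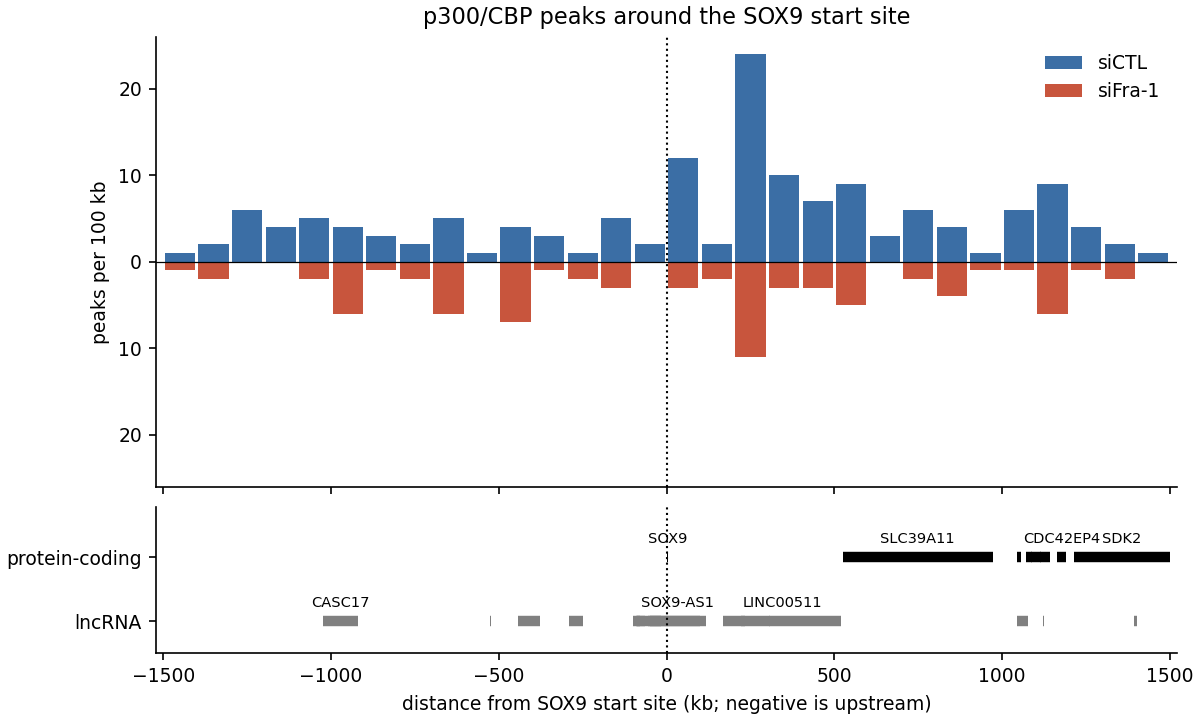
Number of p300/CBP peaks per 100 kb (vertical axis, siCTL upward in blue, siFra-1 downward in red) against distance from the SOX9 start site in kb (horizontal axis, negative is upstream), with annotated protein-coding and long non-coding genes below. The highest column, at 200 to 300 kb downstream, reaches 24 siCTL and 11 siFra-1 peaks, and it lies in LINC00511.

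By segments of 500 kb, the ratio ranged from 0.278 to 1.00, and the interval of every segment took in the 0.474 of all peaks. The farthest upstream segment, from −1500 to −1000 kb, held 18 siCTL and 5 siFra-1 peaks (0.278, 0.0806 to 0.776). The segment from −1000 to −500 kb held 15 in each list (1.00, 0.456 to 2.20), and that from −500 kb to SOX9 held 15 and 13 (0.867, 0.380 to 1.95). These upstream segments differed in their ratios, but their intervals overlapped. The first 500 kb downstream held 55 and 22 (0.400, 0.232 to 0.667), the next 500 kb 23 and 12 (0.522, 0.237 to 1.09), and the last 500 kb 22 and 10 (0.455, 0.192 to 1.00).

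At the scale of 100 kb, every one of the 30 bins held a siCTL peak and 6 held no siFra-1 peak, with medians of 4.0 and 2.0 peaks per bin. The siFra-1 count was above the siCTL count in 4 bins, equal to it in 7 and below it in 19. Between −1300 and −1100 kb, 6 and 4 siCTL peaks faced none in the siFra-1 list, whereas between −500 and −400 kb 4 siCTL peaks faced 7. The latter was the bin in which the siFra-1 list led by most.

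Around SOX9 itself, peaks of the siFra-1 list were scarce. Within 10 kb of the start there were 2 siCTL peaks and 0 siFra-1 peaks. Within 50 kb there were 6 and 1 (ratio 0.167, 0.00362 to 1.37), within 100 kb 14 and 3 (0.214, 0.0395 to 0.768), and within 250 kb 35 and 14 (0.400, 0.199 to 0.763). The ratio over all peaks, 0.474, lies inside the intervals at 50, 100 and 250 kb, so the difference in number close to SOX9 was not separated from that of the lists as a whole at these counts.

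The siCTL peaks flanking the start site were both 100 bp wide. The one upstream was centred at 4.46 kb (70112652 to 70112751), in an intron of SOX9-AS1, and the one downstream at 3.94 kb (70121052 to 70121151), in an untranslated part of SOX9. Neither had a siFra-1 peak over it. In the siFra-1 list the nearest peaks were 145 kb upstream (69972452 to 69972651, 200 bp, between genes) and 30.7 kb downstream (70147752 to 70148051, 300 bp). The stretch of 175 kb between these siFra-1 peaks held no other siFra-1 peak, and SOX9 stands inside it.

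The peak 30.7 kb downstream was present in both lists, 200 bp wide in siCTL and 300 bp in siFra-1. It closed a siCTL run of 3 peaks over 1.20 kb, of which the other members, 100 bp each, were siCTL-only. From there to 100 kb downstream the siCTL list held 7 further peaks, all of 100 bp and none overlapping a siFra-1 peak, and the siFra-1 list held 2, at 62.3 and 80.9 kb. Among those 7, 5 formed a run at 84.9 to 94.0 kb (70202052 to 70211201) with no siFra-1 peak in its span.

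**Figure D2:**
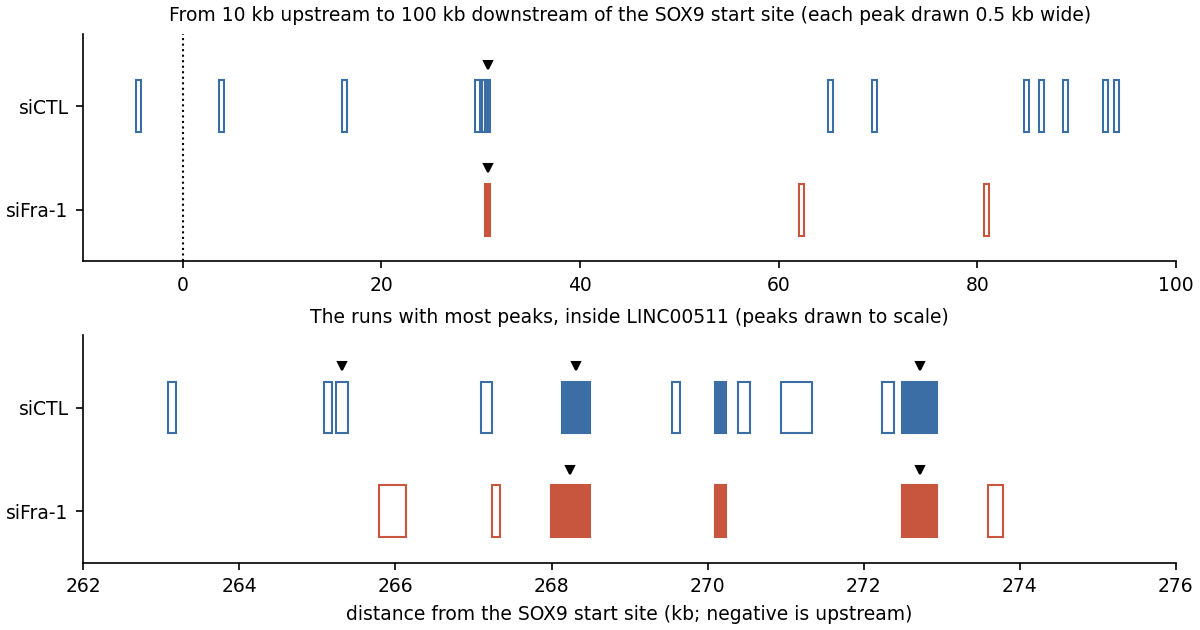
Peaks of each list (rows) near SOX9 (upper panel, symbols widened to 0.5 kb) and over the runs with most peaks, inside LINC00511 (lower panel, to scale), by distance from the SOX9 start site in kb. Filled boxes overlap a peak of the other list, open boxes do not, and triangles mark peaks holding an AP-1 word. In the upper panel 1 siFra-1 peak of 3 coincides with a siCTL peak, and in the lower panel 3 of 6 do.

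No promoter of a protein-coding gene in the window was reached by a peak of either list. This was counted over the 3 kb centred on each of the 8 start sites: SOX9, SLC39A11, SSTR2 (a somatostatin receptor), COG1 (a subunit of a Golgi tethering complex), FAM104A, C17orf80, CPSF4L and CDC42EP4. Over all 20098 protein-coding promoters, siCTL peaks reached 16% and siFra-1 peaks 9.22%. Among the 30 non-coding genes overlapping the window, the siCTL list reached the promoters of LINC01152, LINC02003 and AC080037.1, with 1 peak each. The siFra-1 list reached none of these. The share of all non-coding promoters reached was not computed, so no difference between the lists is drawn from these counts.

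Most peaks of the window lay in introns, 95 of 148 in siCTL (64.2%) and 46 of 77 in siFra-1 (59.7%). The intronic share of all peaks and that of the window sequence were not computed. Another 46 (31.1%) and 27 (35.1%) lay between genes. Exons took 5 siCTL and 4 siFra-1 peaks, of which 4 and 3 were in LINC00511, and untranslated parts took 2 siCTL peaks, in SOX9 and in SSTR2.

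LINC00511 held more peaks than any other gene of the window. Its body (70286232 to 70636611, minus strand, 350 kb) takes up 11.7% of the window and held 42 siCTL peaks, or 28.4% (21.7 to 36.1), and 18 siFra-1 peaks, or 23.4% (15.3 to 34.0). That was 120 siCTL peaks per Mb against 40 in the rest of the window, and 51.4 siFra-1 peaks per Mb against 22.3. Of the peaks in it, 5 in each list were 250 bp or wider, and 6 in each list were shared.

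SLC39A11 came next, with 22 siCTL and 11 siFra-1 peaks over a body of 447 kb, 2 wide and 4 shared in each list. SOX9-AS1 held 13 and 3, the same counts as ENSG00000288605, a non-coding gene that overlaps most of it on the same strand. CASC17, a long non-coding RNA gene far upstream, held 4 and 5, and ENSG00000286387, also non-coding and upstream, held 1 and 3. In these last genes the siFra-1 count was the larger, by peaks that were all unshared.

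CDC42EP4 held 9 siCTL and 5 siFra-1 peaks in only 28.4 kb. The part of SDK2 that reaches into the window, a cell adhesion gene starting beyond its edge, held 7 and 3. In the remaining protein-coding genes peaks were rare: SOX9, SSTR2 and COG1 held 1 siCTL peak each and no siFra-1 peak, C17orf80 held 1 siFra-1 peak, and FAM104A and CPSF4L held none.

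Peaks of the window gathered in runs, defined as at least 3 peaks of a list with each centre no more than 10 kb from the next. There were 13 siCTL runs, 2 upstream and 11 downstream of SOX9, and 7 siFra-1 runs, 3 upstream and 4 downstream. Runs took in 64 of the siCTL peaks (43.2%, 35.5 to 51.3), where 35.4% of all siCTL peaks were in runs, a difference from the peaks elsewhere of 7.86 points (0.141 to 15.9). In the siFra-1 list they took in 24 (31.2%, 21.9 to 42.2), where the share of all peaks was 31.0%, a difference of 0.190 points (−9.06 to 11.2). On chromosome 17 as a whole, 1643 of 3635 siCTL peaks and 662 of 1768 siFra-1 peaks were in runs. Both are larger shares than in the window, and no interval was computed against chromosome 17. A run depends on how densely a list is populated, so the shares of the lists are not set against each other. Peaks enter a run at least 3 at a time and so are not independent, which these intervals do not allow for. The siCTL difference, whose interval starts at 0.141 points, is therefore not taken as separate from 0.

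The run with most peaks in each list lay at the same place, in intronic sequence of LINC00511. In siCTL it had 11 peaks over 9.85 kb (70380252 to 70390101), 3 of them wide and 3 shared. In siFra-1 it had 6 peaks over 8 kb (70382952 to 70390951), again with 3 wide and 3 shared. The shared members were a pair of 350 bp in siCTL and 500 bp in siFra-1 at 268 kb, a pair of 150 bp at 270 kb and a pair of 450 bp at 273 kb, the last 2 with the same borders in both lists.

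Between these shared peaks the lists placed different ones. The siCTL list alone had a 400 bp peak at 271 kb, the widest siCTL-only peak of the window, 700 bp from the nearest siFra-1 peak. The siFra-1 list alone had a 350 bp peak at 266 kb, the widest siFra-1-only peak, 400 bp from a siCTL peak of 150 bp. At 267 kb a siCTL peak of 150 bp and a siFra-1 peak of 100 bp abutted without sharing a base, and so were counted as unshared.

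The siCTL run with the next most peaks, 8 over 8.45 kb (71284752 to 71293201), lay in CDC42EP4 and held 3 shared peaks. A siFra-1 run of 3 peaks over 1.95 kb lay within it. After these came siCTL runs of 6 peaks each at 216 to 226 kb (70333252 to 70343551) and 241 to 244 kb (70357952 to 70360851), both in LINC00511 and with 1 shared peak each. The other 6 siFra-1 runs had 3 peaks each. The upstream ones among them were at −957, −685 and −491 kb, and the latter pair each took in a wide siFra-1 peak.

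Long stretches without peaks alternated with these runs. In siCTL the longest ran for 131 kb, from −351 to −220 kb, and in siFra-1 for 254 kb, from −1340 to −1086 kb. Over both lists joined, the longest was 108 kb, from −599 to −491 kb, and the third, of 87.3 kb, ran from −91.9 to −4.51 kb, up to the nearest siCTL peak. For wide peaks the empty stretches were much longer. No siCTL peak of 250 bp or over lay between −487 and 218 kb, a stretch of 705 kb with SOX9 in it. The same stretch held 2 such siFra-1 peaks, at −328 and 30.7 kb. Neither list had a wide peak between 596 and 1170 kb downstream.

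The 16 loci with a wide peak included 5 upstream and 11 downstream of SOX9. At 11 of them both lists had a peak, at 2 the siCTL list alone and at 3 the siFra-1 list alone. From the far upstream end, the locus at −697 kb (69420202 to 69420801) was 600 bp wide in siCTL, the widest peak of the window, and 400 bp in siFra-1. The locus at −682 kb (69434952 to 69435301) was 350 and 300 bp wide and held an AP-1 word. Both lie between genes, with SOX9 as the nearest protein-coding start.

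A pair of loci followed at −489 kb (69627602 to 69628101), 350 bp in siCTL and 500 bp in siFra-1, and at −487 kb (69629552 to 69630001), 450 bp in siCTL and 200 bp in siFra-1. The siFra-1 peak was thus the wider at one and the narrower at its neighbour. The last upstream locus, at −328 kb (69789152 to 69789451), was a siFra-1 peak of 300 bp with no siCTL peak within 23100 bp. None of these 3 held an AP-1 word.

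Downstream, the locus at 30.7 kb has been described. The locus at 218 kb (70335102 to 70335601) was 500 bp in siCTL and 350 bp in siFra-1, and held 4 TEAD words, the most of any locus. The loci at 266, 268, 271 and 273 kb are those of the runs with most peaks. Still within LINC00511, a siCTL peak of 250 bp lay over an exon at 468 kb (70585152 to 70585401), in a run of 4 siCTL peaks and 13400 bp from the nearest siFra-1 peak. At 482 kb (70598802 to 70599051) a siFra-1 peak of 250 bp opened a run of 3 siFra-1 peaks, 550 bp from a siCTL peak of 100 bp. Each of these last peaks held an AP-1 word and had no peak of the other list over it.

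In SLC39A11, the locus at 563 kb (70680002 to 70680401) was 250 bp wide in siCTL and 400 bp in siFra-1, and it was the only one of the 16 with 2 AP-1 words. The locus at 595 kb (70712252 to 70712751) had 500 bp and the same borders in both lists, and no AP-1 word. In CDC42EP4, the locus at 1171 kb (71287602 to 71287951) was 300 and 350 bp wide. It is the only one of the 16 within 100 kb of a protein-coding start apart from that at 30.7 kb, lying 20.4 kb from the start of CDC42EP4.

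**Figure D3:**
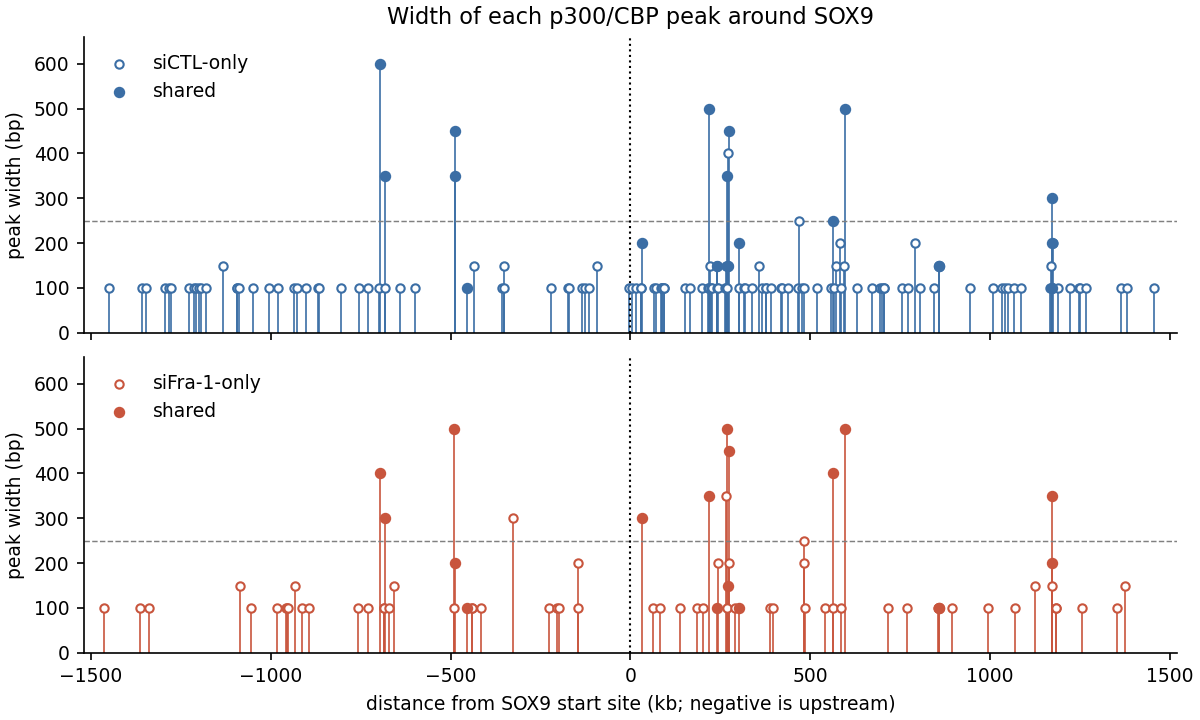
Width of each p300/CBP peak in bp (vertical axis) by distance from the SOX9 start site in kb (horizontal axis), siCTL above and siFra-1 below, filled where it overlaps a peak of the other list. The dashed line marks 250 bp: above it stand 12 siCTL and 13 siFra-1 peaks, 10 of each filled, and the widest reach 600 and 500 bp.

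Few peaks of the window were at the same site in both lists. Overlap of at least 1 bp was found for 19 of the 148 siCTL peaks (12.8%, 8.37 to 19.2) and 18 of the 77 siFra-1 peaks (23.4%, 15.3 to 34.0), in 19 pairs. Over all peaks the shares were 9.56% and 19.1%. The window exceeded the peaks elsewhere by 3.28 points in siCTL (−1.18 to 9.63) and 4.24 points in siFra-1 (−3.81 to 14.8), and both intervals include 0.

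Sharing followed width. Of the 100 bp peaks, 2 of 110 siCTL (1.82%) and 5 of 51 siFra-1 (9.80%) were shared, beside 3.79% and 6.56% of such peaks elsewhere. At 150 or 200 bp, 7 of 26 (26.9%) and 3 of 13 (23.1%) were, beside 21.7% and 28.1%. From 250 bp upward the counts were 10 of 12 in siCTL (83.3%, 55.2 to 95.3) and 10 of 13 in siFra-1 (76.9%, 49.7 to 91.8), beside 85.0% and 68.2% of all peaks of that width. In none of these classes did the interval of the difference from the peaks elsewhere leave out 0. A wide peak covers more bases and so meets a peak of the other list more readily, and its width was not matched here.

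At shared sites the peaks differed in width in either direction. The siFra-1 peak was wider in 6 of the 19 pairs, equal in 5 and narrower in 8, with a median difference of 0.0 bp and a range from −250 to 150 bp. The same counts over all shared pairs of the lists were not computed. The narrowing of 250 bp was that of the −487 kb locus, and a widening of 150 bp was found at −489, 268 and 563 kb. Of the 5 equal pairs, the widest was that of 500 bp at 595 kb.

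Unshared peaks were mostly the narrowest, 108 of 129 in siCTL and 46 of 59 in siFra-1 being 100 bp. Some stood close to a peak of the other list without touching it. In siCTL, 8 were within 200 bp of a siFra-1 peak, 21 within 1000 bp and 66 within 10000 bp, with a median gap of 9.40 kb. In siFra-1, 4, 10 and 42 were within these distances of a siCTL peak, with a median gap of 5.30 kb. Among siCTL-only peaks, 200 bp peaks came next after the 400 and 250 bp peaks named above. They stood at 581 and 792 kb in SLC39A11 and at 1176 kb in CDC42EP4.

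Counted in 200 bp around the peak centre, AP-1 words were at a larger share of siCTL peaks in the SOX9 window than elsewhere. In the 200 bp centred on each peak, TGAGTCA or TGACTCA was found at 18 of 148 siCTL peaks (12.2%, 7.83 to 18.4), where 6.15% of all siCTL peaks had it. The difference from the peaks elsewhere was 6.02 points (1.69 to 12.3). For siFra-1 peaks the count was 10 of 77 (13%, 7.21 to 22.3), beside 9.08% of all, a difference of 3.92 points (−1.87 to 13.2). In windows moved by 2 kb to either side, 5.07% and 4.55% had the word, where 3.10% and 3.29% of the moved windows of all peaks did. The sequence beside the peaks of the window thus also held the word at a larger share than that beside peaks in general, and its part in the difference was not tested. The parts of peak width and of chromosome 17 as a whole were not tested either. Of the 18 siCTL peaks with the word, 5 lay in a single run in LINC00511. Peaks of a run are not independent, so the interval from 1.69 points may overstate the evidence for a difference. With the search over each whole peak instead, the word's share was 8.78% in siCTL (5.21 to 14.4). In siFra-1 it was 11.7% (6.27 to 20.7). Such shares were not computed for the rest of the lists. The siCTL windows held 20 distinct words and the siFra-1 windows 11, and 8 of these were common to both lists.

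AP-1 words were most frequent at shared and at wide peaks. The word was at 8 of 19 shared siCTL peaks (42.1%, 23.1 to 63.7) and 8 of 18 shared siFra-1 peaks (44.4%, 24.6 to 66.3), above shared peaks elsewhere by 20 points (1.01 to 41.6) and 21.7 points (1.81 to 43.6). At unshared peaks it was at 10 of 129 in siCTL (7.75%, beside 4.45% elsewhere) and 2 of 59 in siFra-1 (3.39%, beside 5.84%), differences of 3.30 points (−0.189 to 9.23) and −2.45 points (−4.92 to 5.71). Among peaks of 250 bp and over, it was at 6 of 12 in siCTL (50%) and 6 of 13 in siFra-1 (46.2%), where 31.9% and 22.9% of all such peaks had it. The siFra-1 difference from wide peaks elsewhere was 23.3 points (0.322 to 48.0) and the siCTL difference 18.2 points (−6.51 to 42.8). The shared and the wide peaks are largely the same loci, so these shares are not separate observations.

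By position, AP-1 words were at 3 of 48 upstream siCTL peaks (6.25%, 2.15 to 16.8) and 15 of 100 downstream ones (15%, 9.31 to 23.3). In siFra-1 they were at 1 of 33 (3.03%, 0.537 to 15.3) and 9 of 44 (20.5%, 11.2 to 34.5). LINC00511 alone accounted for 10 of the siCTL peaks with the word, out of 42 (23.8%, 13.5 to 38.5), and for 3 of 18 in siFra-1. The upstream side was also poorer in G and C, with a median of 40% in siCTL and 42.0% in siFra-1 peaks against 48.5% and 50.8% downstream. Its part in the motif shares was not tested.

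**Figure D4:**
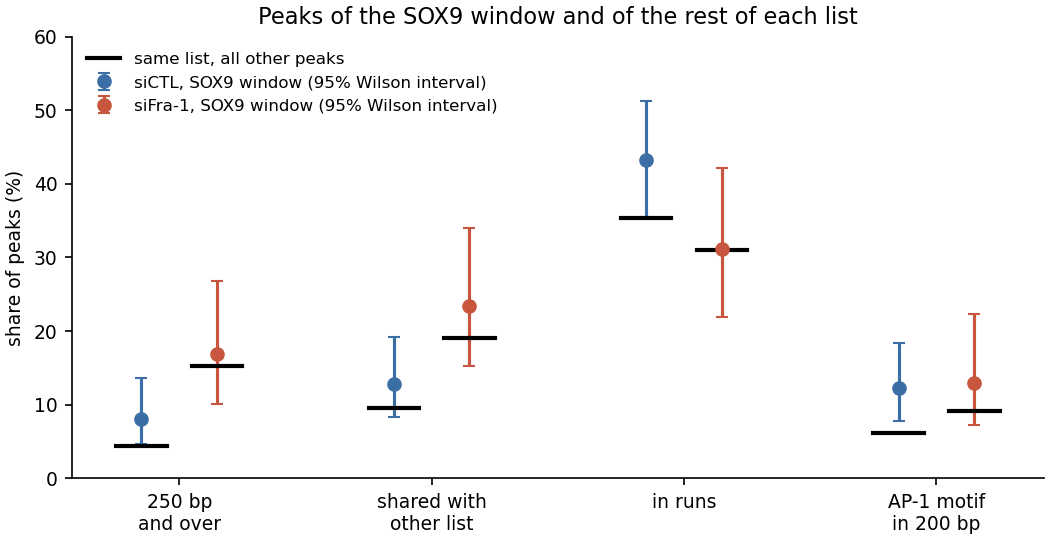
Share of the peaks of the SOX9 window, in percent (vertical axis), that were 250 bp or wider, shared, in runs or held an AP-1 word in 200 bp (horizontal axis), with 95% Wilson intervals, in siCTL (blue) and siFra-1 (red). Black bars give the share among all other peaks of the same list, not among those of chromosome 17 alone. The siCTL intervals for width, runs and AP-1 words, around 8.11%, 43.2% and 12.2%, start above their bars, and every siFra-1 interval spans its bar. The intervals treat peaks as independent, which the peaks of a run are not.

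The other words searched gave no difference from the rest of the lists beyond the intervals. They were the TEAD word GGAATG, the RUNX word TGTGGT, the C/EBP word TTGCNNAA, the SOX words ACAATG and ACAAAG, the CTCF word, the CRE word TGACGTCA and the ETS word CCGGAAGT. The SOX words were at 33 siCTL peaks (22.3%, beside 25.6% elsewhere) and 15 siFra-1 peaks (19.5%, beside 26.2%). TEAD words were at 17 (11.5%) and 10 (13%), RUNX words at 18 (12.2%) and 9 (11.7%), and C/EBP words at 16 (10.8%) and 13 (16.9%). The largest of these differences upward was that of C/EBP in siFra-1, 5.81 points with an interval from −0.941 to 15.7. The CTCF word was at 1 siCTL peak and no siFra-1 peak. CRE and ETS words were at 0 of 148 siCTL peaks, which allows a share of up to 2.53% (Wilson), and at 0 of 77 siFra-1 peaks, which allows up to 4.75%.

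Over the whole window, genes included, peaks were about as dense as on the rest of chromosome 17. It held 49.3 siCTL peaks per Mb, 1.06 times the 46.6 of the rest of chromosome 17 (0.892 to 1.25), and 25.7 siFra-1 peaks per Mb, 1.14 times the 22.6 there (0.891 to 1.43). Nearer to SOX9 these folds were larger. Within 1 Mb they were 1.16 (0.949 to 1.41) in siCTL and 1.38 (1.05 to 1.77) in siFra-1. Within 500 kb they were 1.51 (1.17 to 1.91) and 1.55 (1.08 to 2.17). The upstream side alone, which holds no protein-coding start, had 32.0 siCTL and 22 siFra-1 peaks per Mb. The siCTL value was below the 46.6 of the rest of chromosome 17 and the siFra-1 value close to the 22.6 there. These contrasts were not tested. Chromosome 17 is itself dense, and for the whole window against chromosomes 1 to 22 and X the folds were 1.69 (1.43 to 1.99) and 1.86 (1.47 to 2.33). For peaks of 250 bp and over, the folds against the same chromosomes were 3.12 (1.61 to 5.46) in siCTL and 2.06 (1.10 to 3.53) in siFra-1. Against the rest of chromosome 17 they were 1.67 (0.848 to 2.99) and 1.05 (0.550 to 1.81), with intervals that include 1.

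The same window was drawn around other SOX genes. SOX8 and SOX10 are the remaining SOXE genes, SOX5 and SOX6 act with SOX9 in cartilage, and SOX4 and SOX2 belong to other SOX groups. The siFra-1 to siCTL ratios were 0.382 at SOX8 (55 and 21 peaks), 0.562 at SOX10 (112 and 63), 0.273 at SOX5 (55 and 15), 0.529 at SOX6 (85 and 45), 0.450 at SOX4 (109 and 49) and 0.331 at SOX2 (133 and 44). SOX9 had the most peaks of these windows in both lists. Its window holds 8 protein-coding starts, those of SOX4, SOX5, SOX2 and SOX6 hold 6, 8, 9 and 19, that of SOX10 holds 74, and that of SOX8, cut short by the chromosome end at 2.47 Mb, holds 115. SOX2, with 133 siCTL peaks, and SOX4, with 109, thus also had many peaks among few starts.

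Sharing differed between these windows. At SOX9 12.8% of siCTL peaks were shared, above SOX5 (1.82%) by 11.0 points (2.04 to 17.5), SOX6 (2.35%) by 10.5 (3.15 to 17.1), SOX4 (3.67%) by 9.17 (2.17 to 15.9) and SOX2 (2.26%) by 10.6 (4.48 to 17.1). SOX10, at 24.1%, stood above SOX9, and the SOX9 share minus the SOX10 share was −11.3 points (−21.0 to −1.84). SOX8, at 10.9%, differed by 1.93 points (−9.86 to 10.5). In the siFra-1 list the share at SOX10, 39.7%, again stood above that at SOX9, with a difference of −16.3 points (−31.0 to −0.937), and the difference from SOX8 was −5.19 points (−28.0 to 13). The SOX9 share exceeded those at SOX6, SOX4 and SOX2 by 18.9, 15.2 and 16.6 points, with intervals above 0, and the difference from SOX5 was 16.7 points (−7.80 to 28.6). Wide peaks numbered 12 siCTL and 13 siFra-1 at SOX9, 15 and 19 at SOX10 and 4 and 4 at SOX8, 0 and 0 at SOX5, 1 and 2 at SOX6, 0 and 6 at SOX4 and 1 and 0 at SOX2. Since sharing followed width and the windows differed in their wide peaks, these differences in sharing are not separate from width, which was not matched. The intervals are not adjusted for the number of windows compared.

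**Figure D5:**
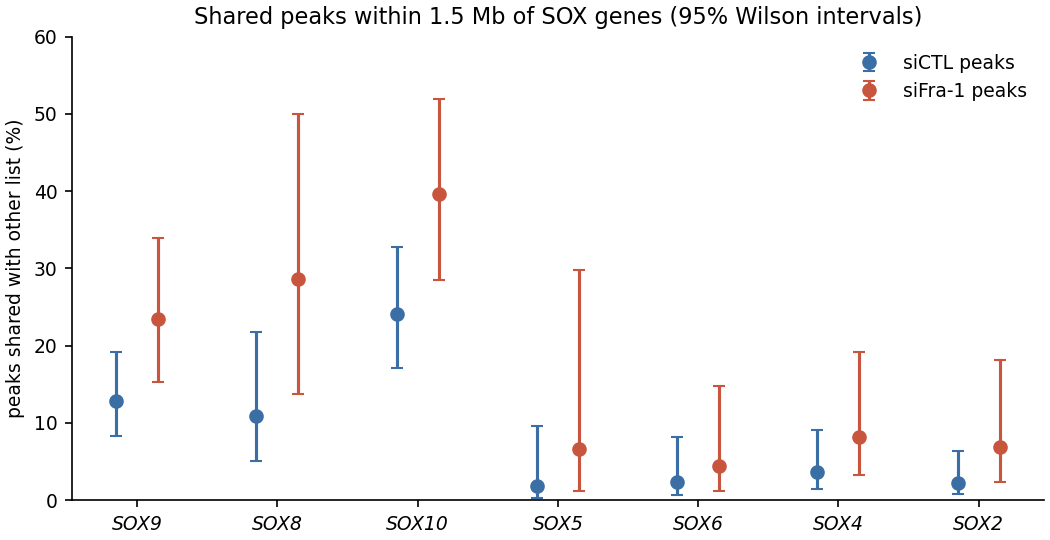
Share of peaks overlapping a peak of the other list, in percent with 95% Wilson intervals (vertical axis), in the window of 1.5 Mb on each side of 7 SOX genes (horizontal axis), for siCTL (blue) and siFra-1 (red) peaks. SOX9 stands at 12.8% and 23.4%, below SOX10 at 24.1% and 39.7% and above SOX2 at 2.26% and 6.82%.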

How the data were processed

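p300/CBP ChIP-seq was analysed from 2 deposited peak lists (chromosome, start and end on hg19), siCTL and siFra-1. The authors pooled replicate immunoprecipitations before library preparation, aligned reads with BWA-backtrack according to their methods (the submitters' processing notes name Bowtie2), and used PASHA in bins of 50 bp, scaled and with background subtracted. Peaks were called by the authors with the same settings in both lists (threshold 25, largest gap 50 bp, shortest run 50 bp). An earlier processing parameter carried in the names of the lists differed between them, and its meaning is not stated. Starts were raised by 1 for printing.

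Peaks of the SOX9 window were compared with all other peaks of the same list, with 95.0% intervals (Wilson for shares, Newcombe for their differences, exact for ratios of counts). Words were searched on both strands of the GRCh37 sequence, the CTCF word being named only. Genes were from GENCODE 44 lifted to GRCh37. Named were the protein-coding genes starting in the window, the 5 non-coding genes with most peaks, every peak of 250 bp and over, the 3 widest peaks found in 1 list alone, the peaks nearest to the SOX9 start and the 3 runs with most peaks in each list. Members, lists and named items were chosen with earlier results of these data known. SDK2, the non-coding genes with a peak at the promoter, and the runs and bins named beyond this rule were chosen after their values were seen. Overlaps, runs and words were tested on simulated data, and overlaps also against bedtools 2.31.1. Python 3.11.15, pandas 2.3.3, scipy 1.17.1 and pysam 0.24.0 were used.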

Additional observations from a re-analysis of the deposited data

How the results depend on the processing

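Of 65 values recomputed under other settings, 43 moved by less than their counting intervals and 20 moved by more. Another 2, whose main intervals left out 1, were counted as changing direction. With peaks of at least 250 bp alone, the siFra-1 to siCTL ratio was 1.08 in the window and 1.12 downstream, on the other side of 1, with intervals that include 1. With at least 150 bp, the upstream ratio was 1.12, also on the other side of 1. It is counted among the 20, as its main interval (0.428 to 1.09) already included 1. Shared peaks were 34.2% of siCTL and 50% of siFra-1 peaks from 150 bp, and 75.0% and 69.2% when both lists were limited to 250 bp and over. AP-1 words were at 31.6% and 23.1% from 150 bp, and at 50% and 46.2% from 250 bp. Peaks in runs were 25.0% of siCTL peaks from 250 bp, 54.3% within 500 kb of SOX9, 30.4% with steps of up to 5 kb and 73.0% with 20 kb, and 51.9% of siFra-1 peaks with 20 kb. The density fold was 1.41 and 1.67 in siCTL from 150 and 250 bp, 1.51 (siCTL) and 1.55 (siFra-1) within 500 kb, and 1.69 and 1.86 against chromosomes 1 to 22 and X. A longer permitted step can only add peaks to runs and a shorter one only remove them. For the other values the cause was not tested. With 1 library per condition, made from pooled immunoprecipitations, no replicate could be left out and no paired analysis was possible. Without heights or read counts, a narrow peak in 1 list alone cannot be told from a signal just under the calling threshold in the other.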
